A study of Homo sapiens with 27 samples.

Results

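Collagen receptors are the cell surface proteins through which cells bind and sense collagen. The 7 genes described here are the 4 alpha subunits of the collagen-binding integrins (ITGA1, ITGA2, ITGA10 and ITGA11), their shared partner ITGB1, and the discoidin domain receptor tyrosine kinases DDR1 and DDR2, out of 20268 genes in the deposited table. They were chosen because ITGA10 and DDR2 had the largest rises of all tested genes in LNCaP95 cells with CPSF1 knockdown, and the other 5 genes are their closest relatives by function. All 7 genes were in the table. CPSF1 is the largest subunit of the cleavage and polyadenylation specificity factor, which recognises the poly(A) signal of nascent transcripts.

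Integrins are pairs of an alpha and a beta subunit, and each of the 4 alpha subunits pairs with the beta subunit encoded by ITGB1 to form a collagen receptor. Discoidin domain receptors bind triple-helical collagen and respond with slow, sustained tyrosine phosphorylation. In normal tissues DDR1 is mainly epithelial and DDR2 mainly mesenchymal, while the integrin with the ITGA10 subunit is best known from cartilage.

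RNA was sequenced from 3 human prostate cancer cell lines, the hormone-sensitive line LNCaP and the hormone-insensitive lines LNCaP95 and 22Rv1. In each line, cells carried a pGIPZ lentiviral vector with a non-silencing hairpin (CTRL sh), or with a hairpin that targets CPSF1, of which there were 2, named CPSF1 sh1 and CPSF1 sh2. All groups, controls included, went through puromycin selection. The dose is recorded as 2 µg/mL for LNCaP and 22Rv1 cells. A dose of 1 µg/mL is given with no line named, and was taken to be that of LNCaP95 cells. Cells were plated at 500000 per well and grown for 72 h. Each of the 9 groups had 3 biological replicates, which gave 27 libraries with 8515624 to 15904518 counts on genes (median 11058723). Because the comparisons are made within a line, the medium and selection particular to a line were shared by its CTRL sh and CPSF1 sh cells, but between lines they cannot be told apart from the line itself.

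All 15 luminal prostate markers, among them KRT8 and KLK3, were above 0.5 CPM (counts scaled to a common library total) in every group. Between 8 and 12 of 19 mesenchymal markers lay under 0.5 CPM, depending on the group. CPSF1 itself was lower in all 6 CPSF1 sh libraries than in all 3 CTRL sh libraries of every line, with log2 fold changes of -0.65 (SE 0.056) in LNCaP, -0.89 (SE 0.079) in LNCaP95 and -0.50 (SE 0.062) in 22Rv1 cells. The edgeR adjusted p-values were 1.68e-07, 1.31e-06 and 9.66e-05.

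The windows around the transcription start sites are shown first, because the members' start sites differ widely in their content of CG dinucleotides, the substrate of DNA methylation. RefSeq promoter windows on GRCh38.p14 hold 250 bases before and 50 bases after a start, and all 7 genes matched, with 17 windows. They are written 5′ to 3′ on the gene's strand, with each CG dinucleotide in capitals. ITGA10 has 1 window, at chr1:145910001-145910300 on the minus strand. DDR2 has 3 windows on the plus strand, at chr1:162630613-162630912, chr1:162631725-162632024 and chr1:162632214-162632513. For contrast, the first window of ITGB1 lies at chr10:32958181-32958480 on the minus strand, 47562 bases inside the gene as the counted annotation draws it.
ITGA10: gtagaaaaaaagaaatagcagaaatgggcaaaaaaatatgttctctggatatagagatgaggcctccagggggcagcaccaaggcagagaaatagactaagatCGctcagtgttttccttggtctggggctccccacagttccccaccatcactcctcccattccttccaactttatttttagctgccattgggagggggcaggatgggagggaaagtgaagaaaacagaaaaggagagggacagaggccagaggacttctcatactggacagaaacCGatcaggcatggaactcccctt
DDR2, start 1: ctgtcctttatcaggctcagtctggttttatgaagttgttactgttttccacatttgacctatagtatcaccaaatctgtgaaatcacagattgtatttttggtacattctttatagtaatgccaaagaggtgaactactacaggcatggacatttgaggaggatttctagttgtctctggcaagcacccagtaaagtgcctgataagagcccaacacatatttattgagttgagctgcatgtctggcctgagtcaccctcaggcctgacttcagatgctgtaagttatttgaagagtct
DDR2, start 2: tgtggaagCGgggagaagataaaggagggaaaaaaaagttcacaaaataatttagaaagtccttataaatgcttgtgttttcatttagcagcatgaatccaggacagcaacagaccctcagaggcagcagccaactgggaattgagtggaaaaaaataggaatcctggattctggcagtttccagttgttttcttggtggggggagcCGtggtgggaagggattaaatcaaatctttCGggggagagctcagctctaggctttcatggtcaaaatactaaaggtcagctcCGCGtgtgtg
DDR2, start 3: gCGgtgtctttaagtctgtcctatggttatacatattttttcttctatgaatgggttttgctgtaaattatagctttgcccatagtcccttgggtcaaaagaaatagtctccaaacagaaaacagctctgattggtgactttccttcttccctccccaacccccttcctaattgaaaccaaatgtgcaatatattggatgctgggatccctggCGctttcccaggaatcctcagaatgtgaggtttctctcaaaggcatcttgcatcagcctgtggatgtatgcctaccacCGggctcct
ITGB1, start 1: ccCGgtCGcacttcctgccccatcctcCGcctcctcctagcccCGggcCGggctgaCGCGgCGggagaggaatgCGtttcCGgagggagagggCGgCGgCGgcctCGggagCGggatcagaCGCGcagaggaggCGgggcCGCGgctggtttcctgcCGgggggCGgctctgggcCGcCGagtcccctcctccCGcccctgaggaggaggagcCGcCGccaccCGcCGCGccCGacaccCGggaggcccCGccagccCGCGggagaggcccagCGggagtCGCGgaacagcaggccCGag

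The ITGA10 window holds 2 CG dinucleotides, and 18.2% of all 35116 promoter windows hold as few. The 3 DDR2 windows hold 0, 5 and 3, as few as in 3.96, 33.7 and 24.5% of windows. In the first ITGB1 window there are 39, which 8.71% of windows reach. The ITGB1 window of start 2 holds 4, as few as in 29.6% of windows. The windows of ITGA1, ITGA2 and ITGA11 hold 19, 27 and 29, the 8 windows of DDR1 hold 3 to 34, and the median of all windows is 14. The letters TATAAA, searched on both strands, stand in the DDR2 windows of starts 1 and 2, the ITGB1 window of start 2 and 11.5% of all windows. CCAAT stands in the ITGA10 window and the DDR2 window of start 3, as in 34.6% of all windows. Among the relatives it stands in the ITGB1 window of start 2 and the DDR1 window of start 1. GGGCGG is absent from the windows of ITGA10 and DDR2, and also from those of ITGA1 and ITGA11, as against its presence in 45.0% of all windows. These are descriptions of letters in a window, with no measurement of binding or methylation.

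On GRCh37, the build of the deposited counts, ITGA10 lies on chromosome 1 from 145524891 to 145543868 on the plus strand. Its RefSeq window matched that build exactly at 1 place, with the start 139 bases inside the gene as the table draws it. DDR2 lies on the same chromosome and strand from 162601163 to 162757190. All member levels below are CPM scaled by trimmed mean of M-values (TMM) over the 27 libraries. In LNCaP cells 5 of the 7 genes passed the filter of more than 2 CPM in all 9 libraries, in LNCaP95 cells 6 and in 22Rv1 cells 4.

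ITGA10 encodes the alpha subunit of a collagen-binding integrin best known from chondrocytes. In LNCaP95 cells, where the rule chose it, it was 2.86, 3.36 and 3.36 CPM with CTRL sh, 52.9, 48.4 and 45.7 CPM with CPSF1 sh1 and 87.1, 61.8 and 64.0 CPM with CPSF1 sh2. Its fitted log2 fold change there was 4.22 (SE 0.26), a description and not a test. DDR2 followed with 3.74 (SE 0.29), and the gene next below them was CMYA5 with 3.10 (SE 0.16).

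In LNCaP cells, which the rule did not use, ITGA10 was 0.964, 0.687 and 0.810 CPM with CTRL sh. It was 24.8, 19.0 and 19.3 CPM with CPSF1 sh1 and 31.2, 25.9 and 30.5 CPM with CPSF1 sh2. All 6 CPSF1 sh libraries were above all 3 CTRL sh libraries, and the ratio of the mean levels was 30.6. Since the control libraries held only 8 to 10 counts, the gene fell under the filter and was tested by itself. The mean log2(CPM + 0.5) differed by 4.26 between the arms, with a two-sided exact permutation p = 0.0119 over the 84 divisions of the 9 libraries, the smallest these divisions allow, and p = 0.0238 after adjustment over 6 tests. Without CTRL sh replicate 1, 2 or 3 of LNCaP cells the adjusted permutation p was 0.0714, 0.0714 and 0.0536, since fewer divisions remained, with differences of 4.18 to 4.33. In the edgeR fit without an expression filter the log2 fold change was 4.92 (SE 0.26, adjusted p = 1.35e-10), in which 24.1% of 17516 genes were called higher.

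In 22Rv1 cells ITGA10 was 1.02, 0.846 and 1.08 CPM with CTRL sh. It was 7.95, 9.68 and 9.78 CPM with CPSF1 sh1 and 16.8, 18.3 and 17.0 CPM with CPSF1 sh2. The CPSF1 sh libraries were again all above the CTRL sh libraries, and the ratio of the means was 13.5. The difference of mean log2(CPM + 0.5) was 3.15, with the same exact permutation p = 0.0119 (adjusted p = 0.0238). With 1 control library of 22Rv1 cells left out it was 3.08 to 3.20 with an adjusted permutation p of 0.0714, for the same reason. Without a filter, edgeR gave a log2 fold change of 3.73 (SE 0.34, adjusted p = 5.46e-07), where 10.8% of 17459 genes were called higher.

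Across the 9 groups, the mean ITGA10 level ran from 0.820 CPM in LNCaP CTRL sh cells to 70.9 CPM in LNCaP95 cells with CPSF1 sh2. The CTRL sh groups of LNCaP and 22Rv1 overlapped, and every other neighbouring pair of groups in the order was apart. For DDR2 the means ran from 1.21 CPM in 22Rv1 CTRL sh cells to 53.6 CPM in LNCaP95 cells with CPSF1 sh2, and the overlapping neighbours were LNCaP95 CTRL sh and 22Rv1 CPSF1 sh1. For ITGA10 each CPSF1 sh group was above every CTRL sh group, whatever the line, whereas DDR2 in LNCaP CTRL sh cells, at 8.72 CPM, was above both 22Rv1 CPSF1 sh groups. Between the CTRL sh libraries of 22Rv1 and LNCaP the log2 difference of ITGA10 was 0.22 (95% interval -0.46 to 0.90, adjusted p = 0.581) with genes kept by filterByExpr.

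DDR2 encodes a discoidin domain receptor bound most strongly by fibrillar collagens. In LNCaP95 cells it was 2.71, 3.27 and 3.76 CPM with CTRL sh, 34.4, 30.5 and 34.5 CPM with CPSF1 sh1 and 60.5, 53.2 and 47.0 CPM with CPSF1 sh2. In LNCaP cells, outside the rule, it was 7.32, 8.50 and 10.4 CPM with CTRL sh, 13.7, 15.5 and 15.2 CPM with CPSF1 sh1 and 17.9, 20.8 and 21.2 CPM with CPSF1 sh2. The 3 groups did not overlap in either line, and the LNCaP controls had the highest DDR2 level of the CTRL sh groups.

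In LNCaP cells the log2 fold change of DDR2 was 1.02 (SE 0.15, edgeR adjusted p = 4.41e-05). In 22Rv1 cells it was 1.02, 1.32 and 1.30 CPM with CTRL sh, 3.60, 3.72 and 3.49 CPM with CPSF1 sh1 and 6.77, 6.00 and 6.74 CPM with CPSF1 sh2. The groups did not overlap, the difference of mean log2(CPM + 0.5) was 1.65 (exact permutation p = 0.0119, adjusted p = 0.0238), and edgeR without a filter gave 2.05 (SE 0.29, adjusted p = 5.60e-05). With 1 control library of 22Rv1 cells left out the difference was 1.57 to 1.70 with an adjusted permutation p of 0.0714. Among CTRL sh libraries DDR2 was lower in 22Rv1 than in LNCaP by a log2 difference of -2.89 (SE 0.21, adjusted p = 5.02e-13) with genes kept by filterByExpr, where 83.4% of genes differed.

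**Figure D1:**
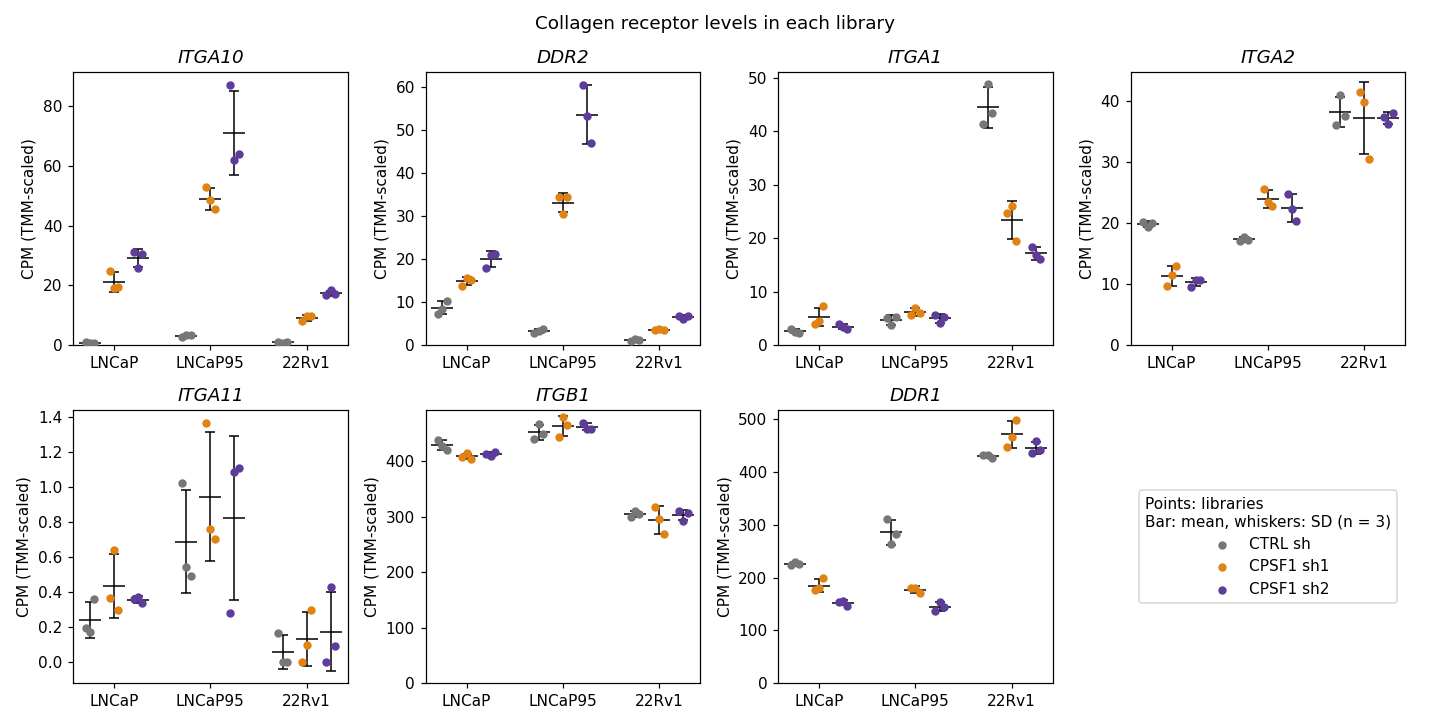
TMM-scaled CPM (vertical axes, linear, each gene on its own scale) of the 7 collagen receptors in each of the 27 libraries, grouped by line and coloured by hairpin; bars and whiskers give mean and SD of 3 libraries. ITGA10 and DDR2 are higher in every CPSF1 sh library than in that line's CTRL sh libraries, where the LNCaP95 values chose both genes. ITGA1 falls in 22Rv1 cells, and ITGB1 lies within 268 to 479 CPM throughout.

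The other alpha subunits took different directions in different lines. ITGA2, the collagen-binding subunit of epithelial cells and platelets, was between 19.4 and 20.2 CPM in the 3 LNCaP CTRL sh libraries and between 9.54 and 12.98 CPM in the 6 CPSF1 sh libraries. The arms did not overlap, and the log2 fold change was -0.86 (SE 0.093, adjusted p = 1.79e-06). In LNCaP95 cells it was 17.1 to 17.8 CPM with CTRL sh and 20.3 to 25.7 CPM with CPSF1 sh, higher in all 6 libraries, with a log2 fold change of 0.42 (SE 0.083, adjusted p = 6.73e-04). In 22Rv1 cells the arms overlapped at 36.1 to 41.0 CPM and 30.5 to 41.4 CPM, with a log2 fold change of -0.04 (95% interval -0.20 to 0.13, adjusted p = 0.773).

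ITGA1, a collagen-binding subunit with a preference for basement membrane collagen, was by far highest in 22Rv1 cells. There it was 41.4, 48.8 and 43.3 CPM with CTRL sh, 24.8, 26.1 and 19.5 CPM with CPSF1 sh1 and 18.5, 16.9 and 16.1 CPM with CPSF1 sh2. All 6 CPSF1 sh libraries were lower, and the log2 fold change was -1.13 (SE 0.13, adjusted p = 4.02e-05). In LNCaP cells it was 2.99, 2.49 and 2.34 CPM with CTRL sh and between 3.04 and 7.23 CPM with CPSF1 sh, where CPSF1 sh1 replicate 3 stood highest. That rise had a log2 fold change of 0.74 (SE 0.25, adjusted p = 0.0182), and was lost when CTRL sh replicate 2 (adjusted p = 0.0644) or replicate 3 (adjusted p = 0.0732) was left out, or with CPSF1 sh2 alone (0.42, adjusted p = 0.0556; 0.40, adjusted p = 0.159, with both hairpins in 1 fit and no expression filter). In LNCaP95 cells the arms overlapped, at 3.72 to 5.34 CPM and 4.09 to 6.995 CPM (log2 fold change 0.25, 95% interval -0.08 to 0.58, adjusted p = 0.210), and CPSF1 sh1 alone gave 0.38 (adjusted p = 0.0369). PELO, a ribosome rescue factor, lies within the bounds of ITGA1 on the same strand, so reads where their exons coincide cannot be given to either gene. PELO had a log2 fold change of 0.27 (adjusted p = 1.03e-04) in LNCaP, -0.32 (adjusted p = 5.06e-04) in LNCaP95 and 0.04 (adjusted p = 0.705) in 22Rv1 cells, and its part in the ITGA1 values was not tested.

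ITGA11, the subunit typical of fibroblasts, was near the detection limit. The highest of the 27 libraries had 1.37 CPM, and 22Rv1 libraries held between 0 and 4 counts. Exact permutation tests gave p = 0.0833 in LNCaP, p = 0.548 in LNCaP95 and p = 0.452 in 22Rv1 cells, so that no difference was detectable at this depth.

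ITGB1, the common beta subunit, had the smallest fitted changes of the members tested. It was 420 to 438 CPM with CTRL sh and 404 to 417 CPM with CPSF1 sh in LNCaP cells, 439 to 467 and 443 to 479 CPM in LNCaP95 cells, and 299 to 309 and 268 to 318 CPM in 22Rv1 cells. The log2 fold changes were -0.05 (95% interval -0.11 to 0.01), 0.03 (-0.05 to 0.11) and -0.03 (-0.13 to 0.07), and none passed the threshold (adjusted p = 0.161, 0.569 and 0.699). In LNCaP cells the arms did not overlap, with all 6 CPSF1 sh libraries slightly lower. With both hairpins in 1 fit and no expression filter, CPSF1 sh1 against CTRL sh gave -0.09 in that line (adjusted p = 0.0374), where 23.7% of genes were called lower. With scaling by library size alone the LNCaP95 value was 0.11 (adjusted p = 0.0236), and under that scaling 62.2% of the genes called in LNCaP95 cells were higher, against 49.6% with TMM.

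DDR1, the epithelial discoidin receptor, fell in both lines of LNCaP origin. In LNCaP cells it was 223, 229 and 225 CPM with CTRL sh, 176, 179 and 199 CPM with CPSF1 sh1 and 154, 156 and 147 CPM with CPSF1 sh2, with a log2 fold change of -0.41 (SE 0.073, adjusted p = 2.00e-04). In LNCaP95 cells it was 310, 263 and 283 CPM with CTRL sh, 181, 180 and 170 CPM with CPSF1 sh1 and 137, 154 and 144 CPM with CPSF1 sh2, with a log2 fold change of -0.83 (SE 0.086, adjusted p = 4.32e-06). In 22Rv1 cells, the line with the highest DDR1 level, it was 426 to 431 CPM with CTRL sh and 436 to 498 CPM with CPSF1 sh (log2 fold change 0.09, 95% interval 0.0047 to 0.18, adjusted p = 0.141). The 22Rv1 arms did not overlap although the difference did not pass the threshold. In the fit with both hairpins and no expression filter, CPSF1 sh1 gave a rise of 0.12 over CTRL sh (adjusted p = 0.0386), where 8.09% of genes were called higher, and CPSF1 sh2 gave 0.04 (adjusted p = 0.537).

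By the edgeR fits, 4 of the 5 members tested in LNCaP cells were called, of which DDR2 and ITGA1 were higher and ITGA2 and DDR1 lower. In that line 31.1% of 11096 genes were called higher and 31.0% lower. Of the 4 relatives tested in LNCaP95 cells, ITGA2 was higher and DDR1 lower, where 33.2% of 11143 genes were called higher and 33.7% lower. In 22Rv1 cells ITGA1, lower, was the call among 4 members tested, with 12.7% of 11728 genes called higher and 14.3% lower. In both LNCaP and LNCaP95 cells a call was thus frequent among all genes.

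The hairpins were compared with each other because the choice of genes used them pooled. With CPSF1 sh2 the levels of ITGA10 and DDR2 were above those with CPSF1 sh1 in every library of each line, with no overlap. The share of all genes whose groups did not overlap in this way is not given here. The log2 difference of CPSF1 sh2 against sh1 for ITGA10 was 0.53 (SE 0.093) in LNCaP95 cells, a description, since libraries of that line chose the gene. With genes kept by filterByExpr the ITGA10 difference was 0.48 (SE 0.10, adjusted p = 0.00437) in LNCaP and 0.92 (SE 0.11, adjusted p = 6.65e-05) in 22Rv1 cells. In both lines ITGA10 had too few CTRL sh counts for the main filter. It was kept here through its CPSF1 sh libraries, where it is high, which limits these p-values. For DDR2 it was 0.70 (SE 0.082) in LNCaP95 cells, likewise a description, 0.43 (SE 0.11, adjusted p = 0.00981) in LNCaP and, with filterByExpr, 0.85 (SE 0.15, adjusted p = 0.00172) in 22Rv1 cells. The hairpins differed at 34.1% of genes in LNCaP95, 14.8% in LNCaP and 11.3% in 22Rv1 cells, and with filterByExpr at 12.6% in LNCaP and 10.7% in 22Rv1 cells. Without CPSF1 sh2 replicate 2, the LNCaP difference of DDR2 was 0.40 with adjusted p = 0.0516.

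DDR1 was lower with CPSF1 sh2 than with sh1 in LNCaP (-0.28, SE 0.044, adjusted p = 2.15e-04) and LNCaP95 cells (-0.29, SE 0.055, adjusted p = 5.40e-04). ITGA1 was lower with CPSF1 sh2 in 22Rv1 (-0.45, SE 0.11, adjusted p = 0.0191) and LNCaP cells (-0.63, SE 0.20, adjusted p = 0.0381). Both ITGA1 differences depended on single libraries. In 22Rv1 cells the adjusted p was 0.0812 without CPSF1 sh1 replicate 2, 0.0546 without CPSF1 sh2 replicate 2 and 0.0910 without CPSF1 sh2 replicate 3. In LNCaP cells the difference was -0.33 (adjusted p = 0.285) without CPSF1 sh1 replicate 3, and adjusted p was 0.0504 without CTRL sh replicate 2, 0.104 without CPSF1 sh2 replicate 2 and 0.124 without CPSF1 sh2 replicate 3. With genes kept by filterByExpr the LNCaP difference of ITGA1 had an adjusted p of 0.0679. The CPSF1 level itself did not pass the threshold between the hairpins, with log2 differences of -0.14 (95% interval -0.25 to -0.04, adjusted p = 0.0773) in LNCaP, 0.00041 (-0.16 to 0.17) in LNCaP95 and 0.07 (-0.07 to 0.20) in 22Rv1 cells.

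**Figure D2:**
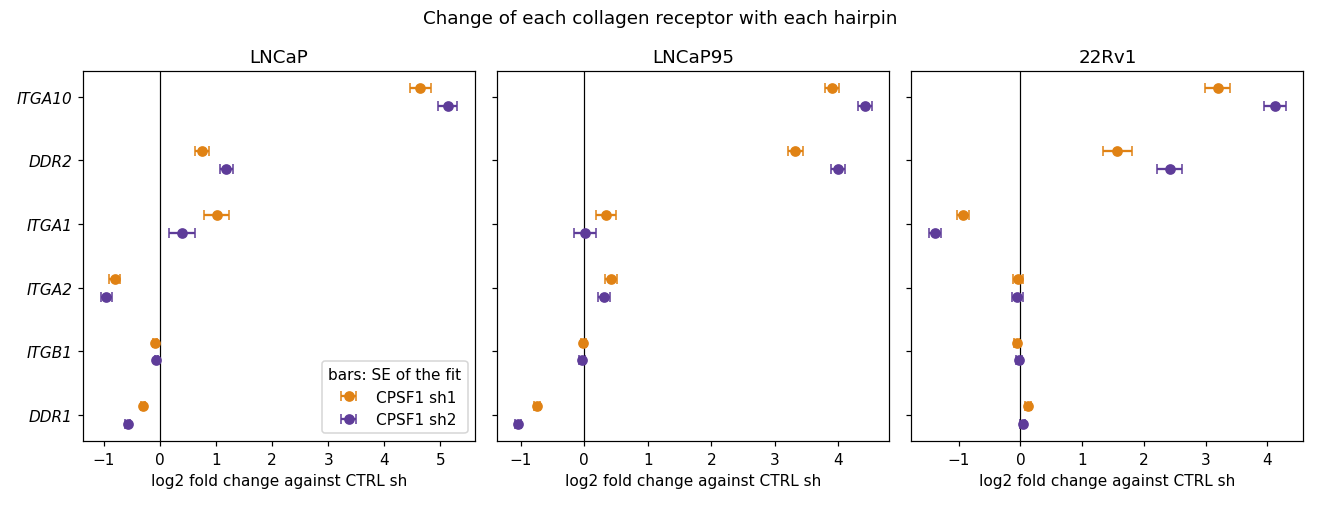
Log2 fold change of each collagen receptor with CPSF1 sh1 or CPSF1 sh2 against CTRL sh (horizontal axis) in LNCaP, LNCaP95 and 22Rv1 cells, from 1 edgeR fit per line without an expression filter; bars are the SE of the fit and ITGA11 is left out for its low counts. ITGA10 lies between 3.20 and 5.13 in LNCaP and 22Rv1 cells, and its LNCaP95 values are those that chose the gene. ITGB1 lies between -0.09 and -0.01 in all 6 contrasts, each sharing its CTRL sh libraries with another.

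Whether the effect of knockdown differed between lines was tested for the members as interactions in a fit of all 27 libraries. The change of ITGA2 differed from LNCaP to LNCaP95 cells by 1.30 (SE 0.13, adjusted p = 2.69e-09), from LNCaP to 22Rv1 cells by 0.84 (SE 0.12, adjusted p = 4.94e-06) and from LNCaP95 to 22Rv1 cells by -0.46 (SE 0.12, adjusted p = 0.00175). For DDR1 the corresponding differences were -0.40 (SE 0.11, adjusted p = 0.00389), 0.51 (SE 0.11, adjusted p = 5.26e-04) and 0.91 (SE 0.11, adjusted p = 8.81e-08). For ITGA1 they were -0.47 (SE 0.34, adjusted p = 0.258), -1.86 (SE 0.29, adjusted p = 1.04e-05) and -1.38 (SE 0.25, adjusted p = 3.68e-05). ITGB1 did not differ beyond the threshold in any pair, with adjusted p from 0.154 to 0.665. Of all 10317 genes in that fit, 50.9% differed for the pair LNCaP95 and LNCaP, 40.4% for 22Rv1 and LNCaP, and 53.7% for 22Rv1 and LNCaP95. With library size alone as the scaling, the share of positive differences among those called went from 52.6 to 65.9% for LNCaP95 minus LNCaP and from 49.5 to 37.4% for 22Rv1 minus LNCaP95.

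Between 22Rv1 and LNCaP cells, the lines the rule did not use, the ITGA10 change differed by -1.20 (95% interval -2.77 to 0.38, adjusted p = 0.256) with genes kept by filterByExpr. The DDR2 change differed by 1.05 (95% interval 0.12 to 1.99, adjusted p = 0.0855). In that fit 34.9% of 14441 genes differed. Neither difference passed the threshold, and the intervals are wide. ITGA10 was under the main filter in both of these lines. It was kept in this fit through libraries where it is high, which limits its p-value.

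The lines differed in most receptors before any knockdown. In CTRL sh libraries ITGA1 was higher in 22Rv1 than in LNCaP cells by 4.07 on the log2 scale (SE 0.13, adjusted p = 6.54e-19) and than in LNCaP95 cells by 3.22 (SE 0.11, adjusted p = 3.42e-18). ITGA2 was higher in 22Rv1 cells by 0.92 and 1.14, and DDR1 by 0.91 and 0.59, while ITGB1 was lower by -0.51 and -0.57 (adjusted p at most 6.59e-11). Between LNCaP95 and LNCaP cells ITGA1 differed by 0.85 (adjusted p = 3.89e-04), DDR1 by 0.32 (adjusted p = 9.61e-07), ITGA2 by -0.21 (adjusted p = 0.0265) and ITGB1 by 0.06 (adjusted p = 0.139; 0.0354 without LNCaP95 replicate 1). The ITGA2 difference was lost without any of 4 libraries, with adjusted p of 0.0647 and 0.0593 without LNCaP replicates 1 and 3 and 0.0787 and 0.0532 without LNCaP95 replicates 1 and 3. Of 10477 genes, 82.7% differed for the pair 22Rv1 and LNCaP, 84.5% for 22Rv1 and LNCaP95, and 80.5% for LNCaP95 and LNCaP.

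To compare genes with each other, levels were divided by exon length (RPKM, CPM per kilobase of exon). The summed RPKM of the 4 alpha subunits was 2.93 ± 0.10 (SD, n = 3) in LNCaP CTRL sh cells, of which ITGA2 made up 85.8% and ITGA10 5.11%. With CPSF1 sh2 the sum was 7.01 ± 0.48, of which ITGA10 made up 76.2% and ITGA2 18.7%. In LNCaP95 cells the ITGA10 share was 17.7% with CTRL sh, 70.6% with CPSF1 sh1 and 78.9% with CPSF1 sh2, and the sum went from 3.31 ± 0.026 to 12.7 ± 0.89 and 16.4 ± 2.77.

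In 22Rv1 cells the ITGA10 share was 2.07% with CTRL sh, 20.2% with CPSF1 sh1 and 34.0% with CPSF1 sh2. There ITGA2 remained the most abundant alpha subunit, at 55.2, 56.0 and 50.3% of the sum, and ITGA1 went from 42.6 to 23.4 and 15.4%. The 22Rv1 sum was 8.76 ± 0.60 with CTRL sh, 8.38 ± 0.90 with CPSF1 sh1 and 9.36 ± 0.073 with CPSF1 sh2. Against ITGB1, the summed alpha subunits were 3.74% of its RPKM in LNCaP CTRL sh cells and 9.29% with CPSF1 sh2, 4.02 and 19.4% in LNCaP95 cells, and 15.7 and 16.9% in 22Rv1 cells. Shares and sums are descriptions of mRNA and say nothing of protein at the surface.

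DDR2 stayed the minor discoidin receptor throughout. Its share of the summed RPKM of DDR1 and DDR2 was 0.843% ± 0.17 in LNCaP95 cells with CTRL sh, 12.2% ± 0.97 with CPSF1 sh1 and 21.5% ± 2.82 with CPSF1 sh2. In LNCaP cells the shares were 2.78, 5.60 and 8.85%, and in 22Rv1 cells 0.208, 0.565 and 1.07%. The sum of both receptors was 36.2 ± 2.95 RPKM with CTRL sh in LNCaP95 cells and 23.2 ± 0.94 RPKM with CPSF1 sh2.

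**Figure D3:**
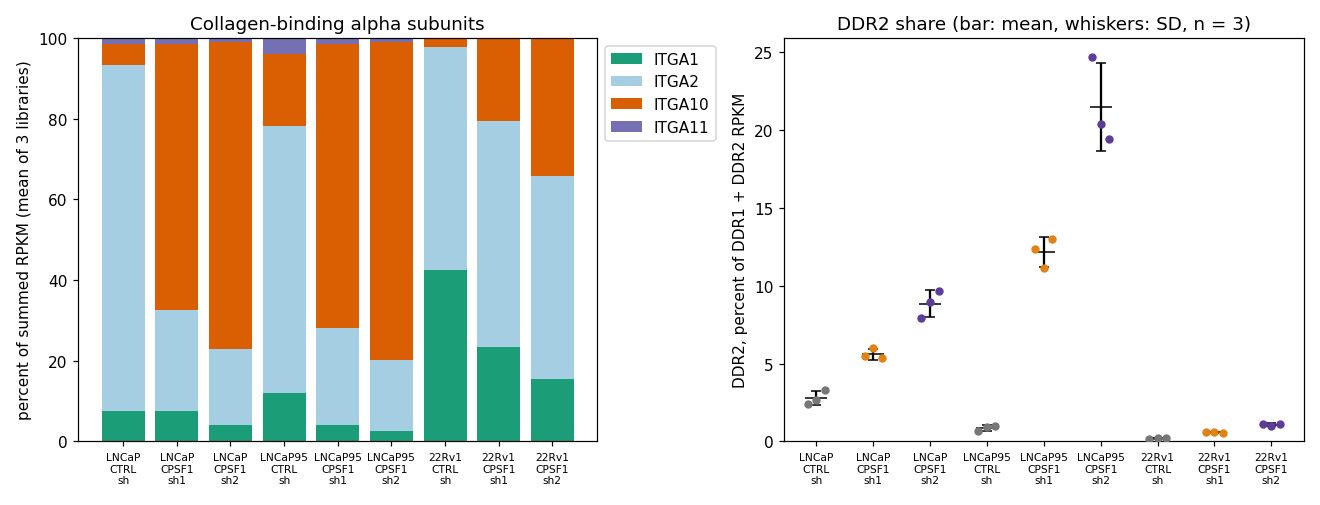
Left, share of each collagen-binding alpha subunit in their summed RPKM (percent, mean of 3 libraries) in the 9 groups; right, DDR2 as a percent of the summed RPKM of DDR1 and DDR2 in each library, with mean and SD. ITGA10 goes from 5.11 to 76.2% in LNCaP cells with CPSF1 sh2 while ITGA2 goes from 85.8 to 18.7%, and the DDR2 share is highest in LNCaP95 cells with CPSF1 sh2.

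Genes near ITGA10 and DDR2 on the same strand were measured too. ANKRD35, which starts 5361 bases after ITGA10, was at 0 to 2 counts with CTRL sh, 6 to 14 counts with CPSF1 sh1 and 21 to 31 counts with CPSF1 sh2 in LNCaP95 cells, and at no more than 6 counts in any library of the other lines.

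UAP1, an enzyme of nucleotide sugar synthesis, ends 31535 bases before DDR2 and was lower with CPSF1 sh in LNCaP (-0.38, adjusted p = 8.57e-08), LNCaP95 (-0.33, adjusted p = 3.14e-05) and 22Rv1 cells (-0.21, adjusted p = 0.00486). HSD17B7, a cholesterol synthesis enzyme that starts 3301 bases after DDR2, was lower as well, by -0.60 (adjusted p = 1.26e-04), -0.73 (adjusted p = 8.94e-05) and -0.42 (adjusted p = 0.00191). The counts give no reads between genes, and the part of the neighbours in the ITGA10 and DDR2 values was not tested.

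**Figure D4:**
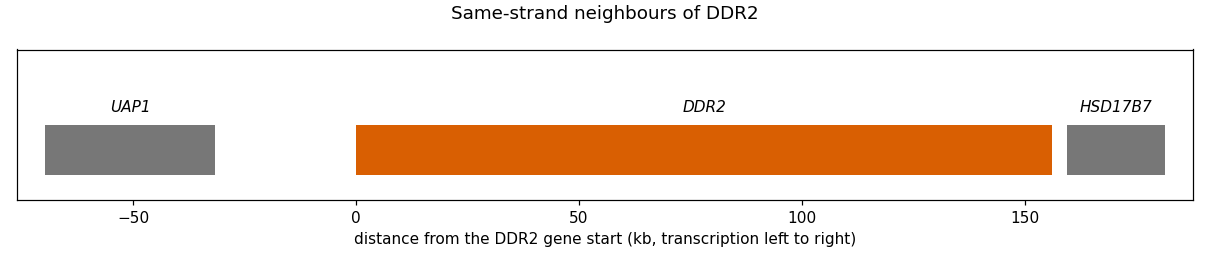
Nearest genes on the same strand (grey) around DDR2 (orange), drawn to scale with distance from the gene start in kilobases on the horizontal axis and transcription from left to right. UAP1 ends 31535 bases before DDR2, and HSD17B7 starts 3301 bases after DDR2.

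Markers of other cell types were read beside these values. In LNCaP95 cells, 5 of 6 tested mesenchymal markers were called higher and 1, SNAI1, lower, beside 33.2% and 33.7% of all genes, and the summed level of the 19 markers went from 701 to 780 CPM with CTRL sh to 2024 to 2077 CPM with CPSF1 sh1 and 3023 to 3131 CPM with CPSF1 sh2. Most of that sum was fibronectin (FN1), at 622 CPM with CTRL sh and 2327 CPM with CPSF1 sh. The other 4 called higher, named after their values were seen, were ACTA2 (mean 12.9 CPM with CTRL sh, 55.4 with CPSF1 sh1 and 81.9 with CPSF1 sh2), SNAI2 (11.2, 20.7 and 38.3 CPM), VIM (61.1, 88.5 and 118 CPM) and SPARC (7.30, 9.27 and 9.49 CPM). Under the filter, FBN1 had means of 0.339, 4.16 and 6.22 CPM and PDGFRB of 1.89, 4.74 and 3.60 CPM. The fibroblast markers DCN, LUM, FAP, PDGFRA, POSTN and THY1 were under 0.5 CPM in each LNCaP95 group, and TWIST1 was at 0. In 22Rv1 cells the sum went from 189 to 197 CPM with CTRL sh to 255 to 272 CPM with CPSF1 sh1 and 471 to 496 CPM with CPSF1 sh2. Most of that rise was FN1, at a mean of 99.6 CPM with CTRL sh and 267 CPM (SD 114) with CPSF1 sh. Of 8 tested markers 5 were higher and 3 lower, among them LUM (-1.08, adjusted p = 9.06e-04), beside 12.7% and 14.3% of all genes. In LNCaP cells the sum went down, from 1284 to 1397 CPM to 940 to 1267 CPM with CPSF1 sh. There 1 of 5 tested markers was higher and 3 lower, beside 31.1% and 31.0% of all genes. Of the 15 luminal markers, LNCaP cells had 2 called higher against 9 called lower, LNCaP95 cells 3 against 8, and 22Rv1 cells 1 against 4, beside the same shares of all genes. KLK3 (PSA) went from 1133 to 366 CPM in LNCaP cells. The part of these markers in the ITGA10 and DDR2 values was not tested, and in bulk RNA fewer cells of a type and less RNA per cell cannot be told apart.

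Cartilage genes, the usual company of ITGA10, were mostly near 0. Of 13 such genes 2 passed the filter in each line, and 8 to 10 lay under 0.5 CPM, depending on the group, ACAN, MATN1, HAPLN1 and COL10A1 among them. SOX9, the chondrocyte transcription factor, was lower in LNCaP (-0.82, adjusted p = 0.00151) and 22Rv1 cells (-0.57, adjusted p = 1.03e-05) and higher in LNCaP95 cells (0.52, adjusted p = 0.0416). The summed level of the 13 genes was 23.6 to 25.003 CPM with CTRL sh, 24.2 to 26.6 CPM with CPSF1 sh1, which overlapped, and 38.8 to 42.4 CPM with CPSF1 sh2 in LNCaP95 cells, and was lower with CPSF1 sh in every library of the other lines. RUNX2 fell in LNCaP (-1.35, adjusted p = 9.81e-06) and SOX5 in 22Rv1 cells (-0.34, adjusted p = 0.0362). SOX6, under the filter and named after its values were seen, had means of 0.335 CPM with CTRL sh, 2.99 with CPSF1 sh1 and 2.66 with CPSF1 sh2 in LNCaP cells, 0.828, 1.76 and 3.90 CPM in LNCaP95 cells, and 1.01, 2.49 and 3.33 CPM in 22Rv1 cells.

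Among other genes of collagen binding, lists set by function gave mixed directions. Over all tested genes the median log2 fold change was -0.00036 (LNCaP), 0.0013 (LNCaP95) and -0.0024 (22Rv1). The list counts that follow stand beside these shares of all genes: LNCaP cells had 31.1% called higher against 31.0% called lower, LNCaP95 cells 33.2% against 33.7%, and 22Rv1 cells 12.7% against 14.3%. Of the 21 other integrin subunits, 6, 9 and 9 were tested in LNCaP, LNCaP95 and 22Rv1 cells. In LNCaP cells 3 were higher and 2 lower (median 0.12), in LNCaP95 cells 1 was higher and 2 lower (median 0.04), and in 22Rv1 cells 2 were higher and 2 lower (median 0.08). ITGA5, the fibronectin receptor subunit, was lower in LNCaP (-1.24, adjusted p = 1.31e-09), LNCaP95 (-0.63, adjusted p = 0.00114) and 22Rv1 cells (-0.42, adjusted p = 0.0083). ITGA6, a laminin receptor subunit, was lower in LNCaP cells (-0.75, adjusted p = 9.80e-09).

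Collagens themselves, the ligands, were split as well. Of 34 chains, 5 of 13 tested were higher and 4 lower in LNCaP cells (median 0.08), 4 of 12 higher and 5 lower in LNCaP95 cells (median -0.04), and 6 of 13 higher and 2 lower in 22Rv1 cells (median 0.02). COL4A6, a basement membrane chain, rose in each line, by 2.71 (adjusted p = 1.22e-09) in LNCaP, 2.61 (adjusted p = 7.70e-07) in LNCaP95 and 1.81 (adjusted p = 1.82e-04) in 22Rv1 cells on the log2 scale. COL7A1, the anchoring fibril collagen, went from 26.5 to 103.7 CPM in LNCaP95 cells (1.96, adjusted p = 5.03e-07). COL6A2, a microfibrillar collagen chain, fell in LNCaP (-1.20, adjusted p = 6.37e-08) and LNCaP95 cells (-0.94, adjusted p = 8.20e-06).

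Of 26 genes for collagen-making enzymes, 25 were in the table. In LNCaP cells 5 of 12 tested were higher and 5 lower (median 0.12), in LNCaP95 cells 5 of 15 were higher and 7 lower (median -0.16), and in 22Rv1 cells 2 of 20 were higher and 6 lower (median -0.0077). PLOD2, a collagen lysyl hydroxylase, was lower in LNCaP (-2.97, adjusted p = 1.94e-08) and LNCaP95 cells (-1.18, adjusted p = 4.83e-05). LOX, which crosslinks collagen, was lower in LNCaP95 (-1.92, adjusted p = 1.51e-04) and 22Rv1 cells (-0.79, adjusted p = 0.00441).

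The list of integrin adhesion genes held linkers to actin such as talins, and also kinases such as PTK2 and SRC. In LNCaP cells 15 of 25 tested genes of that list were higher and 5 lower (median 0.23), beside 31.1% and 31.0% of all genes. In LNCaP95 cells 8 of 23 were higher and 7 lower (median -0.02), and in 22Rv1 cells 9 of 26 were higher and 8 lower (median -0.02). TLN2, a talin that activates integrins, was higher in LNCaP (1.43, adjusted p = 1.16e-07), LNCaP95 (2.42, adjusted p = 2.76e-08) and 22Rv1 cells (0.76, adjusted p = 0.0158). ZYX, a focal adhesion protein, was lower in LNCaP95 cells (-0.71, adjusted p = 8.90e-07).

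Signalling partners of the discoidin receptors moved in both directions, with 4 of 15 tested genes higher and 6 lower in LNCaP (median -0.08), 5 of 14 higher and 6 lower in LNCaP95 (median 0.03) and 2 of 16 higher and 3 lower in 22Rv1 cells (median -0.01). RASA1, a Ras GTPase activating protein, was lower in LNCaP (-0.45, adjusted p = 5.00e-06), LNCaP95 (-0.69, adjusted p = 4.90e-06) and 22Rv1 cells (-0.25, adjusted p = 0.0136). PIK3R1, a regulatory subunit of PI3-kinase, rose in LNCaP95 cells (0.98, adjusted p = 6.91e-05).

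Of 8 other collagen receptors, 2 were tested in LNCaP (1 higher, 1 lower, median 0.19), 2 in LNCaP95 (both higher, median 0.42) and 3 in 22Rv1 cells (1 higher, median 0.23). GPR56, an adhesion receptor for collagen III, was higher in LNCaP (0.52, adjusted p = 8.21e-07), LNCaP95 (0.26, adjusted p = 0.00247) and 22Rv1 cells (0.40, adjusted p = 0.00904). Of 21 metalloproteinases and inhibitors, 1 of 5 tested was higher and 3 lower in LNCaP (median -0.71), 2 of 4 higher and 1 lower in LNCaP95 (median 0.25) and 3 of 8 higher and 1 lower in 22Rv1 cells (median 0.16). MMP16, a membrane-bound metalloproteinase, fell in LNCaP (-1.31, adjusted p = 9.92e-09) and rose in 22Rv1 cells (0.53, adjusted p = 0.00198).

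The genes whose log2(CPM + 0.5) pattern over the 27 libraries was most like that of ITGA10, among 14440 compared, were PYGM (Pearson r = 0.994), AVIL (0.986) and SLC45A2 (0.982). PYGM, the muscle glycogen phosphorylase, went from 0.335 ± 0.15 CPM to 16.6 ± 1.26 CPM with CPSF1 sh2 in LNCaP cells and from 1.72 ± 0.10 to 44.8 ± 3.60 CPM in LNCaP95 cells. For DDR2 the most alike were SOGA2 (0.964), WDR33 (0.960) and NFYC (0.958), with much smaller spans of level. WDR33, another subunit of the complex that holds CPSF1, was 102 ± 4.38 CPM with CTRL sh and 164 ± 2.73 CPM with CPSF1 sh2 in LNCaP95 cells. ITGA10 and DDR2 correlated at 0.813 with each other, at rank 265 for ITGA10 and rank 407 for DDR2. These values describe 27 libraries that share 3 lines and 3 hairpins, with no test.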

How the data were processed

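RNA-seq was done on 3 cell lines, each with a control hairpin or either hairpin to CPSF1. The authors aligned reads to GRCh37 with HISAT2 2.1.0 and deposited raw counts per gene made with featureCounts in reverse-stranded mode. The submitters' processing notes name Subread 2.0.3, and the study's methods give another version. Each line was fitted in R 4.3.3 with edgeR 4.0.16 (quasi-likelihood F-test, legacy form, TMM), on genes that exceeded 2 CPM in each library used. Benjamini-Hochberg adjustment ran over all genes tested, the threshold was 0.05, and tests were two-sided. Members under the filter were tested by exact permutation on log2(CPM + 0.5). Intervals are the fitted value plus or minus the normal quantile times its SE. The members and lists were chosen with earlier results of these data known. Named genes are the members, CPSF1, the nearest same-strand and overlapping genes, the 3 genes most like ITGA10 and DDR2, up to 2 rises and 2 falls per list and line, and the gene next below DDR2. LEPREL2, a listed collagen-making enzyme, was not matched. Lists were set by function, and the text gives some of the genes this rule allows. The fits were also run on simulated counts with few changed genes and the same dispersion for every gene. The data hold far more changes, so that run does not test scaling or error control for them. Replicates differed beyond counting error, with chi-square per degree of freedom from 1.38 to 6.98, so no library was counted as a duplicate. Alternatives were DESeq2 1.42.0, RLE or library size scaling, other filters, the newer edgeR fit, each hairpin alone, hairpins as separate groups, a replicate block, other pseudocounts and each library left out. Some results for named genes are not reported here.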

Additional observations from a re-analysis of the deposited data

Results flagged for a closer look

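The effect of CPSF1 knockdown differed between cell lines for 8 pairs of a member and a contrast of lines, by the interaction term of the edgeR fit of all 27 libraries. ITGA1, ITGA2, ITGB1 and DDR1 were each tested for every pair of lines. Of all 10317 genes in that fit, 50.9% differed for LNCaP95 minus LNCaP, 40.4% for 22Rv1 minus LNCaP and 53.7% for 22Rv1 minus LNCaP95. The contrasts share lines, so the 8 are not separate results. The change of ITGA2 in LNCaP95 minus LNCaP cells was 1.30 on the log2 scale, in 22Rv1 minus LNCaP cells 0.84 and in 22Rv1 minus LNCaP95 cells -0.46. The change of DDR1 was -0.40 in LNCaP95 minus LNCaP cells, 0.51 in 22Rv1 minus LNCaP cells and 0.91 in 22Rv1 minus LNCaP95 cells. The change of ITGA1 was -1.86 in 22Rv1 minus LNCaP cells and -1.38 in 22Rv1 minus LNCaP95 cells. All 8 kept their direction and passed the threshold when any of the 27 libraries was left out and under the 4 other settings run for this fit. ITGA10 and DDR2 are not among them. Contrasts with LNCaP95 cells were not tested for them because values of that line chose both genes. In 22Rv1 minus LNCaP cells neither passed the threshold with genes kept by filterByExpr (ITGA10 -1.20, adjusted p = 0.256, and DDR2 1.05, adjusted p = 0.0855). ITGA10 was under the main filter in both of these lines and was kept through libraries where it is high, which limits its p-value.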

How the results depend on the processing

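No member's called change reversed under any alternative run. The number of genes called in LNCaP hairpins was 1064 with DESeq2 against 1639, and in 22Rv1 knockdown 1853 when CPSF1 sh1 was used by itself, and 6050 for CPSF1 sh2, against 3160; the cause was not tested. With each library left out, calls ran from 1975 to 4586 for knockdown in 22Rv1 (2004, 1975 and 2001 without CTRL sh replicates 1, 2 and 3), 560 to 2083 for hairpins in 22Rv1 and 1049 to 1545 for hairpins in LNCaP cells. Members called between hairpins then ran from 1 to 3 in LNCaP and 0 to 1 in 22Rv1 cells, each time through ITGA1 or DDR2. Members under the filter that passed the exact permutation test ran from 0 to 3 with a library left out, with 0 when any 22Rv1 CTRL sh library was absent (adjusted p = 0.0714), where fewer divisions remain. ITGA2 between LNCaP95 and LNCaP CTRL sh libraries was -0.21 with DESeq2 (adjusted p = 0.0779). ITGB1 passed the threshold with library size alone for LNCaP95 minus LNCaP (0.17, adjusted p = 0.0103) and 22Rv1 minus LNCaP95 (-0.13, adjusted p = 0.0426). Same-numbered replicates correlated between -0.271 and 0.322 in their deviations from group means, so the numbers were not taken to pair the samples. With a replicate block the knockdown calls were 6804 (LNCaP), 7080 (LNCaP95) and 2638 (22Rv1), and no member's call changed. The fit of each hairpin against CTRL sh with both hairpins and no expression filter was chosen after seeing the data. ITGA11 and the control levels of ITGA10 rest on few counts, which limits their precision.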
